A study of Arabidopsis thaliana with 6 samples.

Results

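Expansins are small proteins of the plant cell wall, and the 10 genes described here are those annotated as EXPA4, EXPA7, EXPA8, EXPA9, EXPA16, EXPA18, EXPB3, EXLA1, EXLA2 and EXLA3. Each was found by name in the platform's annotation on 1 probe set that belongs to no other gene, out of 13356 genes annotated in that way. Their transcripts were measured on 6 ATH1 arrays of whole Arabidopsis thaliana seedlings (Columbia-0 background, 2 weeks old, on 1/2 MS medium with 2% sucrose, 16 h light and 8 h dark). The groups were lcbk1-2 and wild type, each sampled before the cold (0 h, 22 °C) and 3 h or 24 h into 4 °C, with 1 array per genotype and time, so no group had replicates. The line lcbk1-2 is labelled a knock-out mutant, and LCBK1 is a long-chain base kinase, which phosphorylates the sphingoid backbones of sphingolipids; no second mutant allele was measured. The annotation gave 0 probe sets for LCBK1 (AT5G23450), so the genotype rests on the labels. No seedlings were kept at 22 °C for 3 h or 24 h. In comparisons that use the 3 h arrays, cold therefore cannot be told apart from time of day or age. By the labelled times, 24 h and 0 h share the hour of the day, and there cold cannot be told apart from age.

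Plant cells grow by yielding of the wall to turgor, and expansins let the wall creep by loosening the contacts between cellulose and other polysaccharides without cutting them, most actively at acid pH. The superfamily has 4 branches: alpha-expansins (EXPA), beta-expansins (EXPB), and the expansin-like A and B proteins (EXLA, EXLB). Wall loosening has been shown for alpha- and beta-expansins, whereas the expansin-like proteins share the fold without an established activity of that kind. The comparison of EXPA and EXPB genes with EXLA genes in the cold asks whether these branches changed alike.

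Values are MAS5 signals, a linear intensity per probe set that had been scaled to the same trimmed mean on each array. Signals below 65.9, the 35th percentile of all values, were treated as not distinguishable and set to that floor before log2 values were taken. All 10 genes entered the fit, and 8 lay above the floor on all 6 arrays; the exceptions were EXPA8 and EXLA3. Median signals ran from 144 to 171 over the arrays. Spiked hybridization controls were 2.23-fold brighter on the wild-type 0 h array than the median of the rest, a ratio that lay between 0.858 and 1.12 for each other array, and the results for the 10 genes were repeated without it. Tests came from limma, fitted to 15658 features with genotype and time as additive terms. Its standard errors hold the disagreement between genotypes and the array error, not the spread between replicates. They also draw on a spread shared by all features, weighted by 4.16 prior degrees of freedom against 2 residual ones. Leaf and root transcripts were both present: RCA, the Rubisco activase gene, read 26457 to 27771 in lcbk1-2 and 24500 to 32750 in wild type, and PYK10, a root beta-glucosidase gene, 19408 to 20924 in lcbk1-2 and 16738 to 22106 in wild type. In whole seedlings, fewer cells of a type and less RNA per cell cannot be told apart. Of 11 listed cold-regulated effector genes, induced when Arabidopsis is chilled, 5 were measured. In limma 5 of these 5 were higher at 24 h than at 0 h, where 19.3% of all features were. Their median log2 change was 5.52.

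**Figure D1:**
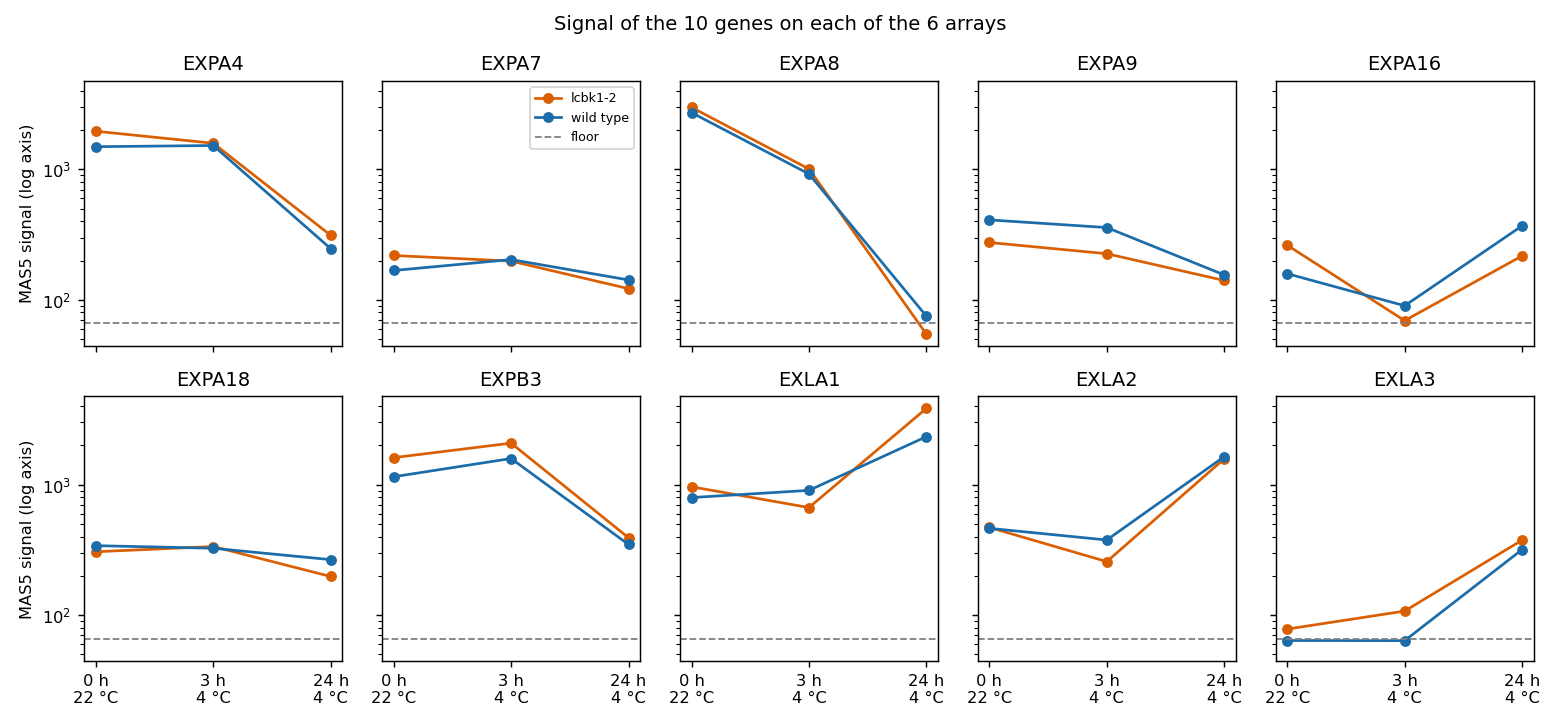
MAS5 signal (log axis) of each gene on the 6 arrays against time at 4 °C; each point is 1 array, lcbk1-2 in orange and wild type in blue, and the dashed line is the floor of 65.9. EXPA8, EXPA4, EXPB3 and EXPA9 are lowest at 24 h in both genotypes, and the 3 EXLA genes are highest at 24 h in both.

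EXPA8, an alpha-expansin gene (AT2G40610), had the deepest fall of the 10. Its signal was 2984, 1007 and 54.7 in lcbk1-2 at 0 h, 3 h and 24 h, against 2719, 921 and 75.0 in wild type. It was thus lower at each later time in both genotypes, and below the floor at 24 h in lcbk1-2. At 3 h it was 2.96-fold lower than at 0 h (log2 change -1.56, SE 0.15, adjusted p = 0.0022 in limma). At 24 h it was 40.5-fold lower (log2 change -5.34, SE 0.15, adjusted p = 2.7e-05), which placed it at rank 3 from the lowest among the 15658 features. With the floor raised to 158, the 50th percentile, the change at 24 h was -4.17. Within lcbk1-2 the fall at 24 h was at least 45.3-fold, a bound set by the floor, and within wild type it was 36.2-fold. The call at 3 h held with the wild-type 3 h array left out and with no other array left out, where adjusted p lay between 0.0524 and 0.0861 at log2 changes of -1.65 to -1.48; with no filter on low signals it was lost too, at an adjusted p of 0.0849.

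EXPA4, another alpha-expansin gene (AT2G39700), moved late. Its signal was 1958, 1584 and 312 in lcbk1-2 at 0 h, 3 h and 24 h, against 1491, 1522 and 247 in wild type. The 0 h and 3 h arrays overlapped, and both 24 h arrays lay far below them. The gene did not pass at 3 h (log2 change -0.14, SE 0.15, adjusted p = 0.57 in limma). At 24 h it was 6.15-fold lower than at 0 h (log2 change -2.62, SE 0.15, adjusted p = 8.3e-05).

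EXPB3, the beta-expansin gene of the set (AT4G28250), had the same late fall after slightly higher signals at 3 h. Its signal was 1611, 2081 and 392 in lcbk1-2 at 0 h, 3 h and 24 h, against 1150, 1586 and 348 in wild type. In each genotype the 3 h array was the highest and the 24 h array the lowest. The change at 3 h was 0.42 (SE 0.14) and did not pass (adjusted p = 0.10 in limma), though it did with a variance prior that follows the mean signal (adjusted p = 0.042). At 24 h EXPB3 was 3.68-fold lower than at 0 h (log2 change -1.88, SE 0.14, adjusted p = 2.3e-04). Against 3 h it was 4.92-fold lower, at rank 125 from the lowest of all features, with EXPA8 at rank 8 and EXPA4 at rank 100 in the same comparison.

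EXPA9, an alpha-expansin gene (AT5G02260), fell by less. Its signal was 275, 226 and 141 in lcbk1-2 at 0 h, 3 h and 24 h, against 410, 358 and 155 in wild type. The genotypes were apart at 0 h and 3 h and close together at 24 h. EXPA9 was 2.27-fold lower at 24 h than at 0 h (log2 change -1.18, SE 0.17, adjusted p = 0.0023 in limma), and did not pass at 3 h (log2 change -0.24, SE 0.17, adjusted p = 0.39). The call at 24 h was lost with no filter on low signals (adjusted p = 0.0693).

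EXPA7 (AT1G12560) and EXPA18 (AT1G62980) are the alpha-expansin genes known for expression in root hair cells. EXPA7 read 219, 198 and 122 in lcbk1-2 at 0 h, 3 h and 24 h, against 168, 204 and 142 in wild type. EXPA18 read 306, 336 and 198 in lcbk1-2 at the same times, against 341, 326 and 266 in wild type. For both genes the 24 h arrays were the lowest in each genotype, by a narrow margin in wild type. At 24 h against 0 h EXPA7 changed by -0.54 (SE 0.18, adjusted p = 0.048 in limma) and EXPA18 by -0.49 (SE 0.16, adjusted p = 0.046), both just inside the threshold. Of 9 alternatives that kept all arrays, 1 kept the call of EXPA7 and 2 that of EXPA18; with the arrays scaled to a common median the changes were -0.35 and -0.30. With 1 array left out, the EXPA7 call held only without the wild-type 0 h array (-0.80) and was lost in the other 5 cases (-0.74 without the wild-type 24 h array to -0.29 without the lcbk1-2 0 h array), and the EXPA18 call held in none of the 6 cases (-0.68 without the wild-type 24 h array to -0.31 without the lcbk1-2 24 h array). Of 22 other root hair genes listed, only the wall enzyme gene XTH26 had a named probe set, and it lay below the floor on all 6 arrays. Of 11 other root markers listed, 1 was tested: PYK10, which did not pass at 24 h (log2 change -0.06, SE 0.15). The part of root hair number in the EXPA7 and EXPA18 values was not tested.

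EXPA16 (AT3G55500) was the alpha-expansin gene with a dip. Its signal was 262, 69.3 and 217 in lcbk1-2 at 0 h, 3 h and 24 h, against 159, 90.1 and 369 in wild type. Both 3 h arrays were the lowest of their genotype, and the 24 h array was above the 0 h array in wild type only. Relative to 0 h, the change at 3 h was -1.37 (SE 0.34, adjusted p = 0.041 in limma), a call lost under 5 of the 9 alternatives with all arrays, among them the floor of 158, at -0.36. That call was also lost with any 1 array left out, at -2.02 without the wild-type 0 h array to -0.72 without the lcbk1-2 0 h array. From 3 h to 24 h EXPA16 rose 3.58-fold (log2 change 1.84, SE 0.34, adjusted p = 0.0085), with log2 changes of 1.65 in lcbk1-2 and 2.03 in wild type. With the floor of 158 that call too was lost, at 0.84, as it was with no filter and without either 3 h array or either 24 h array, at 1.37 (wild-type 24 h left out) to 2.31 (lcbk1-2 24 h left out). At 24 h against 0 h the gene did not pass (0.47, SE 0.34, adjusted p = 0.29), with log2 changes of -0.27 in lcbk1-2 and 1.22 in wild type.

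The 3 EXLA genes moved the other way at 24 h. EXLA1 (AT3G45970) read 963, 668 and 3839 in lcbk1-2 at 0 h, 3 h and 24 h, against 796, 904 and 2332 in wild type. The 24 h arrays stood well above the other 4, which overlapped. EXLA1 was 3.42-fold higher at 24 h than at 0 h (log2 change 1.77, SE 0.27, adjusted p = 0.0027 in limma). It did not pass at 3 h (-0.17, SE 0.27, adjusted p = 0.71). Its SE was the widest of the EXLA genes, and the 24 h call was lost without the wild-type 0 h, lcbk1-2 0 h or lcbk1-2 24 h array, at 1.71, 1.84 and 1.37, with adjusted p of 0.0636, 0.0558 and 0.0659; with no filter on low signals adjusted p was 0.108.

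EXLA2 (AT4G38400), whose loss is reported to alter susceptibility to the grey mould fungus Botrytis, read 470, 257 and 1577 in lcbk1-2 at 0 h, 3 h and 24 h, against 463, 377 and 1639 in wild type. At 0 h and at 24 h the genotypes were nearly equal, and the 3 h array was the lowest in each. The gene was 3.45-fold higher at 24 h than at 0 h (log2 change 1.79, SE 0.18, adjusted p = 5.8e-04 in limma). At 3 h its change was -0.58 (SE 0.18, adjusted p = 0.076), which did not pass here but did with the floor of 158 and with a variance prior that follows the mean signal (adjusted p = 0.047 and 0.036). Against 3 h the rise at 24 h was 5.17-fold, the largest of the 10 genes in that comparison, at rank 124 from the highest of all features.

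EXLA3 (AT3G45960) lies beside EXLA1 in the reference annotation, with a tRNA gene as the only annotated gene between them. It read 78.2, 107 and 376 in lcbk1-2 at 0 h, 3 h and 24 h, against 63.9, 63.8 and 318 in wild type. The wild-type arrays at 0 h and 3 h were below the floor, and both 24 h arrays were far above it. EXLA3 was 4.81-fold higher at 24 h than at 0 h (log2 change 2.27, SE 0.17, adjusted p = 2.0e-04 in limma), and within wild type at least 4.82-fold, a bound set by the floor. With the floor of 158, above its 0 h and 3 h signals in both genotypes, the change was 1.13. At 3 h it did not pass (0.23, SE 0.17, adjusted p = 0.40). Whether the probes of one EXLA gene also bind transcripts of another was not tested; none of the 3 probe sets carries the manufacturer's mark for probes shared between genes.

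**Figure D2:**
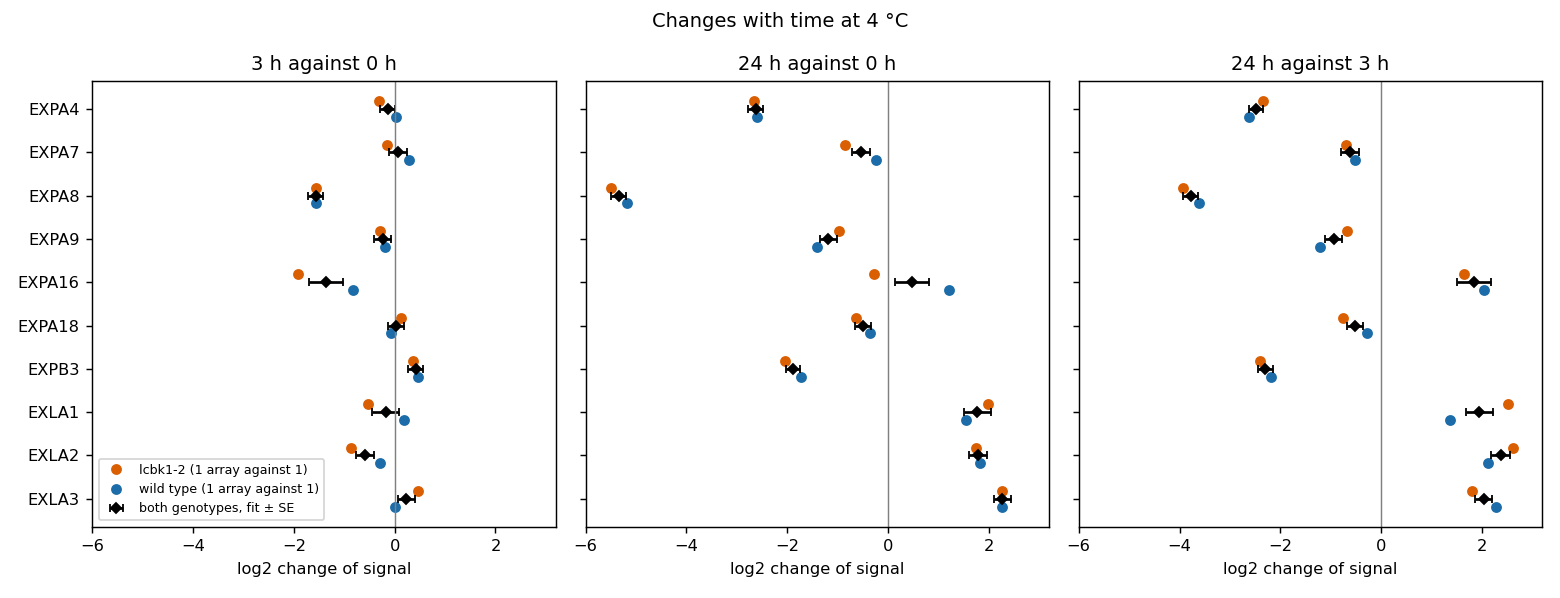
Log2 change of signal between times for the 10 genes; orange and blue points are the single-array differences in lcbk1-2 and in wild type, and black diamonds with bars are the limma estimate shared by both genotypes with its SE. At 24 h against 0 h the EXLA genes lie at 1.77 to 2.27, and 6 of the 7 EXPA and EXPB genes lie between -5.34 and -0.49, with EXPA16 at 0.47.

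Side by side, the EXPA and EXPB genes among the 10 separated from the EXLA genes at 24 h and not at 3 h. Of the 7 EXPA and EXPB genes 6 fell and 0 rose at 24 h against 0 h, where 28.6% of all features fell and 19.3% rose; the gene that did not pass was EXPA16. Of the 3 EXLA genes 3 rose. The median log2 change was -1.18 for the EXPA and EXPB genes and 1.79 for the EXLA genes, against -0.11 over all features. Within single genotypes, 3 EXPA and EXPB genes were at least 2-fold lower at 24 h in lcbk1-2, where 13% of features were, and 4 in wild type, where 12.9% were. All 3 EXLA genes were at least 2-fold higher in lcbk1-2, where 9.8% of features were, and in wild type, where 9.73% were, as was EXPA16 in wild type. The count of 6 falls stood in 1 of the 9 alternatives that kept all arrays, the mean over probe sets. It was 5 with the floor of 158 and 4 with a floor of 24.3 (the 20th percentile), without floor, on log2(signal + 16), after quantile normalization or median scaling and with the variance prior that follows the mean signal. With no filter 3 of the 7 fell and 2 EXLA genes rose, where 2039 of 22589 features fell and 1546 rose. Among all features, 3959 of 12439 fell with the floor of 158 and 3800 of 19442 with that of 24.3. Of 15658 features, 4145 fell without floor, 4436 on log2(signal + 16) and 3264 after median scaling. After quantile normalization 3803 of 15653 fell. At 3 h 2 of the 7 EXPA and EXPB genes fell, EXPA8 and EXPA16, where 7.88% of all features fell, and 0 rose, where 9.28% did (1 at an unadjusted p under 0.05, EXPB3). None of the 3 EXLA genes passed in limma at 3 h (1, EXLA2, at an unadjusted p under 0.05). At 3 h 32.9% of all features had an unadjusted p under 0.05 in limma, in either direction. Between 3 h and 24 h, 6 EXPA and EXPB genes fell and 1 rose, and 3 EXLA genes rose, where 21.2% of all features fell and 12.9% rose. The count of 6 falls between 3 h and 24 h took the same values as at 24 h against 0 h under each of the 9 alternatives with all arrays, and EXPA7 and EXPA18 lost their calls most often. Over all features, 3004 of 12439 fell between 3 h and 24 h with the floor of 158. After median scaling 2214 of 15658 did, and with no filter 923 of 22589. With 1 array left out, the EXPA9 call was lost without the wild-type 3 h or 24 h array (-0.79 and -0.70), the EXLA1 call without either 24 h array (2.35 without the wild-type and 1.55 without the lcbk1-2 array), the EXPA7 call without any 3 h or 24 h array (-0.81 to -0.41) and the EXPA18 call without any 1 of the 6 (-0.71 to -0.34). The comparisons with 0 h share the 0 h arrays, so the times are not independent of each other. The genes were grouped by branch with these values known, so the counts describe these arrays and are not a test of the branches.

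The genes also differed in how far they lay from the bulk of the transcriptome. At 24 h against 0 h, 1.14% of features fell as far as EXPA4, 2.94% as far as EXPB3 and 8.99% as far as EXPA9. EXPA7 and EXPA18 were within the bulk, with 26.4% and 28.6% of features as low or lower. On the other side 2.02% of features were as high as EXLA3, 3.56% as EXLA2 and 3.64% as EXLA1. Scaling the arrays to a common median moved the median of all features by 0.17 at 24 h, and under it the estimates of the 3 EXLA genes lay at 1.96 to 2.43 and that of EXPA4 at -2.43.

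**Figure D3:**
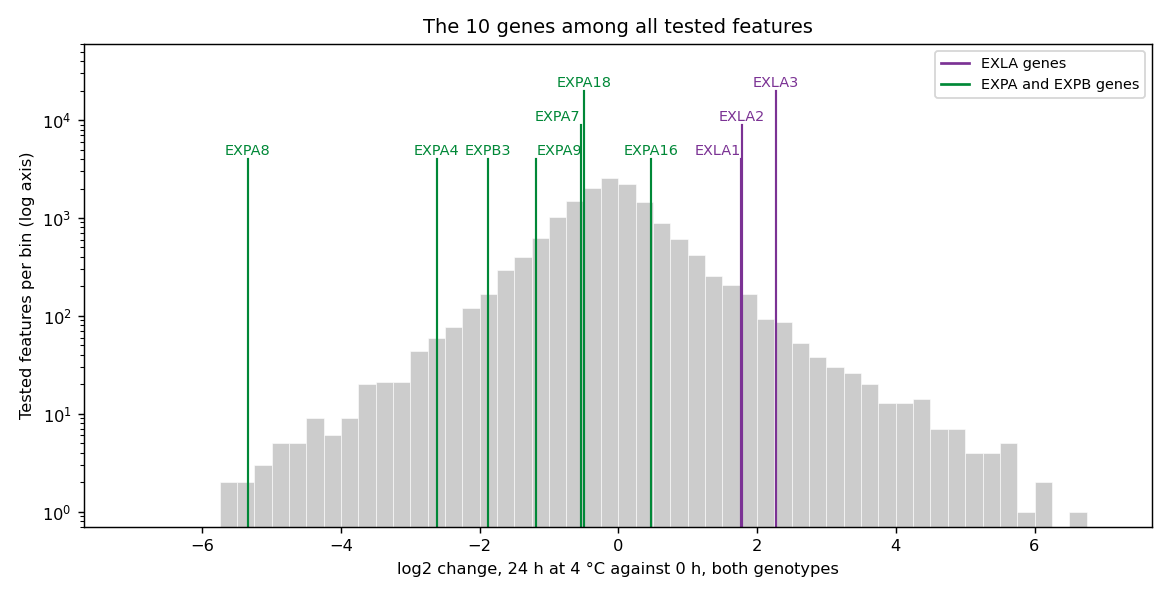
Histogram (log axis) of the log2 change at 24 h against 0 h, shared by both genotypes, over the 15658 tested features, with the 10 genes as vertical lines (purple for EXLA, green for EXPA and EXPB). EXPA8 lies at the lower end, EXPA7 and EXPA18 near the centre, and the 3 EXLA genes in the upper tail.

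The genotype comparison asks whether loss of the kinase altered these levels or their response to cold. Averaged over the times, 0 of the 10 genes differed between lcbk1-2 and wild type in limma, where 0.0128% of all features did. At an unadjusted p under 0.05 there were 3 of 10, against 8.25% of all features: EXPA9 (log2 difference -0.46, SE 0.14, adjusted p = 0.52), EXPB3 (0.35, SE 0.12, adjusted p = 0.55) and EXLA3 (0.40, SE 0.14, adjusted p = 0.56). EXPA9 was lower in lcbk1-2 at all 3 times, and EXPB3 and EXLA3 were higher at all 3. With the variance prior that follows the mean signal, the count was 0 of 10 as well.

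At single times, lcbk1-2 and wild type differed by less than 2-fold for all 10 genes, where 0.683% of all features differed by at least that much at 0 h, 0.722% at 3 h and 0.817% at 24 h. The widest gaps at single times were those of EXPA16, at 0.72 at 0 h and -0.76 at 24 h, of EXLA1 at 24 h (0.72) and of EXLA3 at 3 h (0.70). For EXPA16 the change from 0 h to 24 h differed by -1.49 between lcbk1-2 and wild type, a gap that 0.3% of all features matched or exceeded. In the change from 0 h to 3 h the corresponding difference was -1.10 for EXPA16, which 1.3% of features matched or exceeded. The EXPA16 signals at 3 h, 69.3 in lcbk1-2 and 90.1 in wild type, lay near the floor of 65.9. For EXLA1 the difference at 3 h was -0.71, which 7.5% of features matched or exceeded. EXPA8, EXLA2 and EXLA3 had log2 changes at 24 h of -5.50, 1.75 and 2.26 in lcbk1-2 and of -5.18, 1.82 and 2.27 in wild type. The EXPA8 value in lcbk1-2 and the EXLA3 value in wild type are bounds set by the floor. With 1 array per genotype and time, a difference in response has no test.

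**Figure D4:**
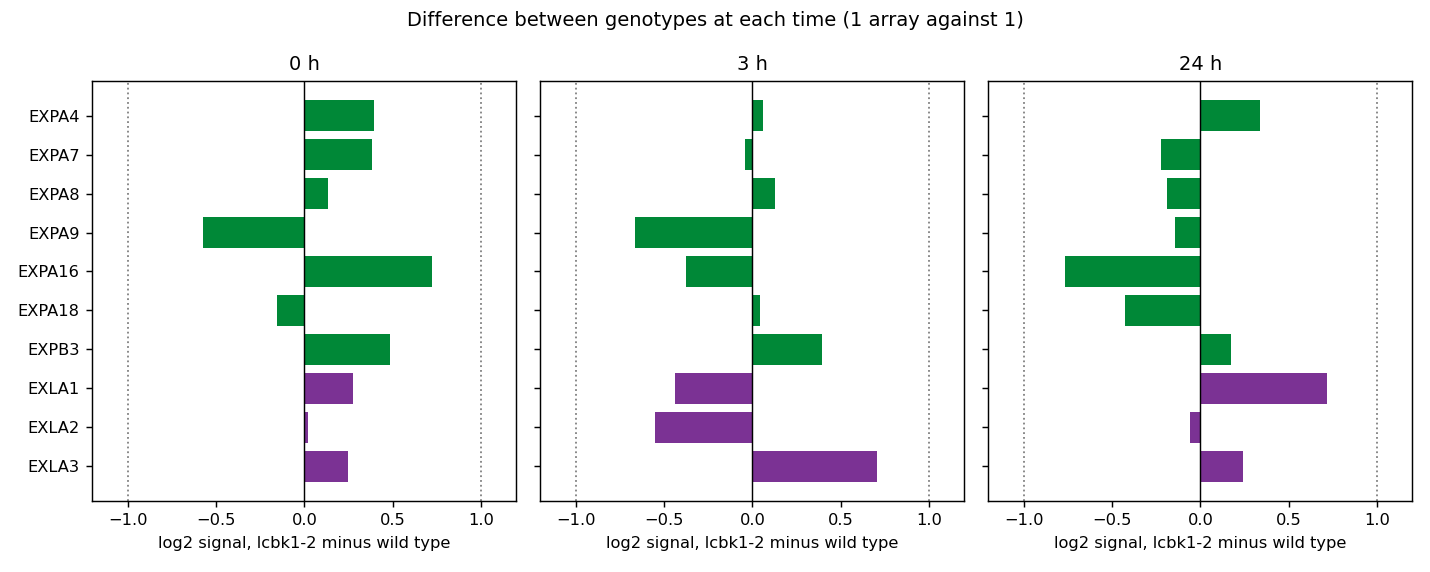
Log2 signal of lcbk1-2 minus wild type for the 10 genes at 0 h, 3 h and 24 h, each bar 1 array against 1 (green for EXPA and EXPB, purple for EXLA); dotted lines mark a 2-fold difference. No bar reaches the dotted lines, and the longest are those of EXPA16 at 24 h (-0.76) and at 0 h (0.72).

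Of the 36 genes of the superfamily, 18 had a probe set of their own in the annotation, and 8 of these are not among the 10. EXPA21, EXPA24 and EXPB5 were not above the floor on enough arrays to be tested, and the 2 probe sets shared by EXPA22, EXPA23, EXPA25 and EXPA26 lay below the floor on all arrays. Of the 5 tested, EXPA15 and EXLB1 fell at 24 h against 0 h, and 0 rose, where 28.6% of all features fell and 19.3% rose. These counts lie near those of the whole array. EXPA15, an alpha-expansin gene, read 1007, 1157 and 485 in lcbk1-2 at 0 h, 3 h and 24 h, against 850, 1167 and 494 in wild type (log2 change at 24 h -0.92, SE 0.14, adjusted p = 0.0031 in limma). EXLB1, the one expansin-like B gene, read 282, 334 and 146 in lcbk1-2 at these times, against 215, 219 and 135 in wild type (-0.81, SE 0.16, adjusted p = 0.0085). EXLB1 thus had the direction of most EXPA and EXPB genes of the 10, and not that of the EXLA genes. EXPB1, a beta-expansin gene, did not pass at 3 h (log2 change 1.18, SE 0.34, adjusted p = 0.065) or at 24 h against 0 h (-0.77, adjusted p = 0.11), and passed from 3 h to 24 h (-1.95, adjusted p = 0.0073). EXPA20 (-0.66) and EXPB2 (0.01) did not pass at 24 h; EXPB2 was above the floor on 2 arrays only.

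Other enzymes that remodel the wall were measured in part. Xyloglucan endotransglucosylase/hydrolases (XTH) cut and rejoin the xyloglucan chains that tie cellulose, and 8 of 33 listed genes were tested: 2 rose and 3 fell at 24 h against 0 h, where 19.3% of all features rose and 28.6% fell, so these counts lie near those of the whole array. XTH20, a gene linked to tissue reunion in wounded stems, read 75.2, 86.4 and 1056 in lcbk1-2 at 0 h, 3 h and 24 h, against 79.6, 81.5 and 1047 in wild type, a 13.6-fold rise at 24 h (log2 change 3.77, SE 0.13, adjusted p = 3.1e-05 in limma). XTH18 rose by 1.25 (SE 0.23), while XTH16 changed by -1.82 (SE 0.14) and XTH33 by -1.70 (SE 0.33). The other fall was that of XTH27 (-0.91), named here after its values were seen. XTH16 was the one XTH gene that also passed at 3 h, at -0.58. Of 11 listed genes of pectin modification 2 were tested, both for pectin methylesterases, which strip methyl groups from pectin: PME35 (AT3G59010) changed by -1.68 at 24 h (SE 0.16, adjusted p = 4.3e-04) and PME41 (AT4G02330) by 1.14 (SE 0.23, adjusted p = 0.0087), with PME41 already higher by 1.66 at 3 h. COB, which encodes the COBRA protein that guides cellulose deposition, did not pass at 24 h (log2 change 0.33, adjusted p = 0.12). Of 9 listed leaf markers 2 were tested, and of 4 listed guard cell markers 1 was. LHCB4.2, a light-harvesting gene, fell by 1.00 on the log2 scale at 24 h, while RCA (-0.02) and FAMA (-0.36), a guard cell regulator, did not pass.

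**Figure D5:**
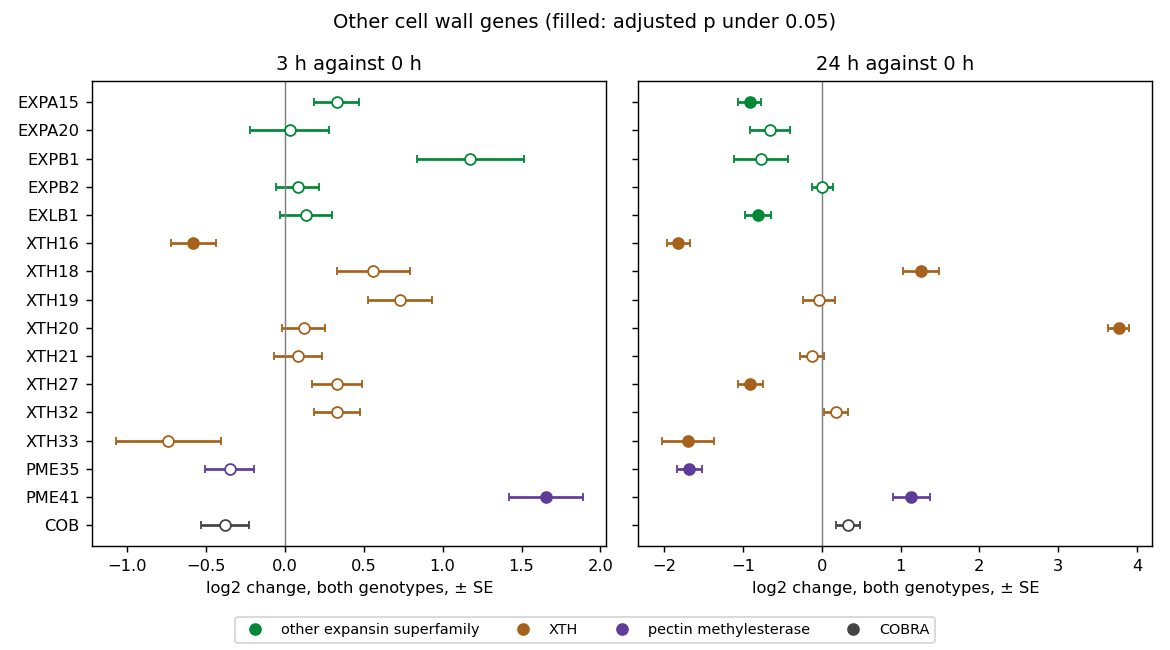
Log2 change, shared by both genotypes, with its SE, at 3 h and at 24 h against 0 h for the tested expansin genes outside the 10 and for the tested XTH, pectin methylesterase and cellulose genes; filled circles passed an adjusted p of 0.05 in limma. At 24 h XTH20 stands apart at 3.77, and EXPA15 and EXLB1 are the filled expansin genes, both below 0.

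For each of the 8 genes whose signal spanned at least 2-fold over the arrays, the annotated genes outside the superfamily with the most similar profile were found among 8458 candidates, by the distance between centred log2 signals, taken after the floor, over the 6 arrays. EXPA8 was closest to AT5G19120 (distance 0.61), AT4G27450 (0.90) and AT2G20670 (0.93), each of which ran lower at 3 h and far lower at 24 h. EXPA4 was closest to GT2 (AT1G76890; 0.32), AT1G19000 (0.32) and AT5G61340 (0.38). EXPB3 was closest to AT1G28400 (0.38), AT3G06750 (0.40) and AT2G41090 (0.45), and EXPA9 to AT5G26280 (0.27) and AT2G39980 (0.28). AT4G25250 also ranked among the 3 nearest to EXPA9, but its 24 h signals (31.6 in lcbk1-2 and 3.07 in wild type) had been set to the floor, so its likeness is not measured. The dip of EXPA16 was matched most nearly by AT3G17110 (0.41), which read 276, 84.5 and 220 in lcbk1-2 at 0 h, 3 h and 24 h, against 188, 93.0 and 316 in wild type, then by AT4G15120 (0.74), which was below the floor in lcbk1-2 at 3 h, and AT1G05340 (0.78). AT4G14230 stood among the nearest of both EXLA1 (0.47) and EXLA2 (0.46). The others ranked nearest to EXLA1, AT3G55940 and AT1G11220, lay below the floor on 4 and 3 of the 4 arrays at 0 h and 3 h, so their likeness there is not measured. The others nearest to EXLA2 were AT5G51830 (0.40) and AT3G58570 (0.57), and those nearest to EXLA3 were AT1G05170 (0.35), AT5G64550 (0.36) and TMT2 (AT4G35300; 0.38). EXLA3 itself had been set to the floor in wild type at 0 h and 3 h, and EXPA8 in lcbk1-2 at 24 h. Likeness to these 2 genes is therefore not measured on those arrays. These distances describe 6 arrays and carry no test.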

How the data were processed

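For each array, hybridized from 6 µg of total RNA, the authors deposited a table of MAS5 intensity values (the tool is named in the submitters' processing notes, its version not given in the sources used here). The deposited intensity is linear, and its 2% trimmed mean is equal on all 6 arrays. Of 22810 features 64 controls were set aside. Names came from the platform annotation and the RefSeq table of TAIR10.1: 13513 probe sets had 1 gene (13436 matched a locus), 503 several, and 8730 none and are unnamed here. Of several probe sets of a gene the brightest was kept (157 set aside). The test took features with 2 or more arrays above the floor, in limma 3.58.1 in R 4.3.3 (2 residual degrees of freedom). It was two-sided, with Benjamini-Hochberg adjustment over all 15658 and a threshold of 0.05. A run on simulated data with independent errors checked the size of its estimates, not its p-values for this design. The labels do not say whether seedlings were pooled, and the number of arrays limits precision. The members and lists were chosen with earlier results of these data known. Genes named are the 10, the rest of the superfamily, up to 4 genes per list with the largest change at 24 h, and the 3 nearest in profile. Lists of proton pumps and growth regulators had 0 measured genes. Alternatives changed the floor, filter, scaling, probe set rule, variance prior or left out 1 array. Gene positions in TAIR10.1 served only to find neighbours; proteins and promoters were not used here.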

Additional observations from a re-analysis of the deposited data

Results flagged for a closer look

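For 5 genes the direction differed between genotypes in 1 comparison with 0 h, each resting on 1 array against 1. The difference was not tested for any of them, and the share of all features that differ in direction in this way was not counted. None of the 5 genes passed in limma in the comparison concerned. EXPA16 had a log2 change of -0.27 in lcbk1-2 and 1.22 in wild type at 24 h. At 3 h the log2 change of EXLA1 was -0.53 in lcbk1-2 and 0.18 in wild type, that of EXPA4 -0.31 in lcbk1-2 and 0.030 in wild type, that of EXPA7 -0.14 in lcbk1-2 and 0.28 in wild type, and that of EXPA18 0.13 in lcbk1-2 and -0.067 in wild type.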

How the results depend on the processing

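Of 21 calls on the 10 genes none changed sign under the 15 alternatives; 145 of 189 repeats with all arrays and 83 of 126 with 1 array left out stayed past the threshold. Genotype was a term of the reported fit, so each time change is already a difference within genotypes. No paired analysis was possible beyond that term, because there was 1 array per genotype and time. Over all features, counts at 3 h were 1018 with the floor at 24.3 (the 20th percentile), 1548 without floor and 124 with no filter, against 2687; with no filter they were 3585 at 24 h against 0 h and 1584 against 3 h. Leaving out 1 array, which leaves 1 residual degree of freedom, gave 0 to 486 at 3 h (0 in limma without either 24 h array, with 4855 at an unadjusted p under 0.05), 3866 to 6541 at 24 h and 1087 to 3945 against 3 h. For lcbk1-2 against wild type the count of 2 became 24 with limma-trend and 0 with the floor at 24.3 or 158 (the 50th percentile), no floor, no filter or 1 array left out (in limma, 1370, 1115, 1181, 1483 and 848 to 1062 at an unadjusted p under 0.05). Rises were 40.3% of calls at 24 h and 37.8% from 3 h to 24 h, against 55.2% and 58.5% after scaling to a common median and 48.7% in the second after quantile normalization. EXPA and EXPB calls that fell at 3 h were 1 with the floor at 24.3 or 158, without floor or on log2(signal + 16), 0 with no filter and 0 to 1 with an array left out. With limma-trend 1 rose at 3 h (EXPB3), and 1 EXLA gene fell, as with the floor at 158 (EXLA2). Over all features, 363 of 19442 fell at 3 h with the floor at 24.3, 1543 of 12439 with that at 158 and 52 of 22589 with no filter. Of 15658 features, 589 fell at 3 h without floor and 947 on log2(signal + 16). From 3 h to 24 h with no filter, 923 of 22589 features fell and 661 rose in limma, with 6042 at an unadjusted p under 0.05. With no filter 3 EXPA and EXPB genes fell at 24 h, and 3 fell from 3 h to 24 h, where 0 of these and 0 EXLA genes rose in limma (0 and 3 at an unadjusted p under 0.05); with the floor at 158, 0 EXPA and EXPB genes rose there. With 1 array left out 4 to 5 fell and 0 to 1 rose at 24 h (EXPA16 without the lcbk1-2 0 h array, at 1.12), 3 to 5 fell and 0 to 1 rose from 3 h to 24 h, and 2 to 3 EXLA genes rose in each. Values that did not pass in the reported fit differed in sign as follows. EXPA8 between genotypes was -0.065 with the floor at 24.3 or without floor, -0.035 on log2(signal + 16) and -0.044 after median scaling. With 1 array left out, genotype differences ran from -0.029 to 0.13 for EXPA8, -0.13 to 0.17 for EXPA7, -0.57 to 0.17 for EXPA16 and -0.082 to 0.50 for EXLA1; changes at 3 h from -0.29 to 0.016 for EXPA4, -0.19 to 0.32 for EXPA7, -0.13 to 0.20 for EXPA18, -0.64 to 0.29 for EXLA1 and -0.0015 to 0.46 for EXLA3; and the 24 h change of EXPA16 from -0.18 to 1.12. The cause of these shifts was not tested.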
